A study of Homo sapiens with 18 samples.

Results

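The genes described here are 10 that mark pancreatic, duodenal or intestinal identity, taken by name from a fixed list: PDX1, CDX1, CDX2, MNX1, RFX6, PTF1A, NEUROD1, SPINK1, CPA1 and VIL1. These members were chosen with earlier results of these data known. They are 10 of the 34989 genes with a symbol in the deposited table, and 7 of the 10 passed the low-count filter that 15531 genes passed. CDX1, PTF1A and NEUROD1 did not pass it and are described by their counts. Bulk RNA-seq was run on foregut endoderm differentiated from wild-type human H1 cells, an embryonic stem cell line, in 6 groups of 3 libraries. The groups were day 9 after all-trans retinoic acid (RA) and then CHIR99021 with BMP4, day 9 after RA alone, day 9 after CHIR99021 with BMP4, untreated day 9, day 6 after RA, and untreated day 6. RA was present at 2 µM over the 24 h before day 6. CHIR99021, an inhibitor of the kinase GSK3 that switches on WNT signalling, was given at 2 µM with 50 ng/mL BMP4 for 72 h from day 6 to day 9. The labels give this pair as a mimic of signals that induce respiratory fate. All 6 groups come from 1 cell line, and no label marks the replicates as separate cultures, so the p-values reflect spread among the libraries sequenced, which may be technical. Bulk values cannot tell fewer cells of a type apart from less RNA per cell.

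The gut tube is patterned from front to back by transcription factors that each hold a stretch of endoderm. PDX1 marks the pancreatic buds and the duodenum, and CDX2 marks the intestine behind them. RA signalling is known to set the rear part of the foregut, from which pancreas and duodenum arise, while WNT and BMP signals act on lung and hindgut endoderm. MNX1, RFX6, PTF1A and NEUROD1 act at successive steps of pancreatic development. SPINK1 and CPA1 are products of pancreatic acinar cells, and VIL1 is the villin of the intestinal brush border.

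Levels are counts per 1000000 (CPM) on TMM-scaled library sizes. Levels of different genes are compared in transcripts per 1000000 (TPM), which are per length. Errors are SDs with n = 3 unless stated. Genes were called at a Benjamini-Hochberg adjusted p below 0.05 in the quasi-likelihood test of edgeR over all 15531 genes. All adjusted p-values below come from that test unless another tool is named. Apart from VIL1, the tested members passed the low-count filter only through libraries that had RA. Members low in every group (CDX1, PTF1A and NEUROD1) are not among the 7 tested. Where a group had no reads, its fold is a lower bound with that group set to 3 counts over its 3 libraries. Where it had 1 to 3 counts, the fold is a ratio with an exact 95% counting interval, and both cover counting error alone.

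Libraries held 5.79 to 25.4 M counts (M, 1000000). All 12 foregut endoderm markers had reads in all 6 groups, with summed levels of 9330 to 10647 CPM in day 6 RA libraries against 3569 to 4137 CPM in untreated day 6 libraries. The keratins KRT8 (5323 against 1982 CPM on average) and KRT18 (2924 against 780 CPM) held most of these sums. With RA at day 6, 9 of the 12 rose and 1 fell, beside 25.3% of all genes higher and 23.4% lower. SOX2 averaged 33.8 ± 6.86 CPM in day 6 RA and 93.6 ± 26.2 CPM in untreated day 6 libraries. A second difference ran along with the treatments. Of 64 genes at least 10-fold apart between treated and untreated libraries, 60 were pseudogenes, and none was a member. Untreated day 6 replicates 1 and 3 were left out of that choice. Those 60 set a scale whose ends are the means of the treated and of the other untreated libraries. By that choice the treated libraries lay at 96.2% to 104% and the other untreated ones at -1.92% to 2.28%. Only the places of untreated day 6 replicates 1 and 3, at 30.8% and 42.3%, were not fixed by it. Below, the place of a library on this scale is called read kind. No label gives a difference in the reads or a batch, and the source of the pseudogene difference was not tested. Every comparison of treated with untreated libraries carries this difference. RA before CHIR99021 and BMP4, CHIR99021 and BMP4 after RA, and day 9 against day 6 after RA compare treated libraries with each other.

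PDX1, the homeodomain factor without which the pancreas does not form, lies at chr13:27920000-27926313 on the plus strand (GRCh38). It had 130, 278 and 529 counts in the day 9 RA libraries, or 20.9, 29 and 58.8 CPM. It had 11, 13 and 14 counts (0.526, 1.31 and 1.93 CPM) after RA and then CHIR99021/BMP4. The day 6 RA libraries had 3, 5 and 0 counts, and the 9 libraries without RA had none. PDX1 reads were thus found in 8 of 9 libraries that had RA and in 0 of 9 that had not. The order of means was day 9 RA, then RA with CHIR99021/BMP4, then day 6 RA, and the first 3 groups did not overlap each other.

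CDX2, the caudal-type homeodomain factor of the intestine, lies at chr13:27960918-27969368 on the minus strand. It had 124, 290 and 534 counts in the day 9 RA libraries (19.9, 30.3 and 59.3 CPM). After RA and then CHIR99021/BMP4 it had 57, 44 and 21 counts (2.73, 4.42 and 2.89 CPM). It had 4, 3 and 6 counts after CHIR99021/BMP4 alone, 4, 8 and 5 in the day 6 RA libraries, and none in either untreated group. CDX2 had reads in every treated library and in no untreated one, and its 4 treated groups did not overlap each other.

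PDX1 and CDX2 belong to the ParaHox cluster, are transcribed on opposite strands, and are 34604 bp apart. Their counts in the day 9 RA libraries stood at ratios of 1.05, 0.959 and 0.991, although the level of each varied 2.82-fold (PDX1) and 2.98-fold (CDX2) between those libraries. In TPM the ratios were 1.62, 1.48 and 1.53. After RA and CHIR99021/BMP4 the count ratios were 0.193, 0.2955 and 0.667, all below the day 9 RA range. The noncoding RNA LINC00543, between both genes, had 4, 11 and 20 counts in the same day 9 RA libraries and 4, 0 and 0 after RA and CHIR99021/BMP4. The third ParaHox gene, GSX1, had 0 counts in all 18 libraries.

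**Figure D1:**
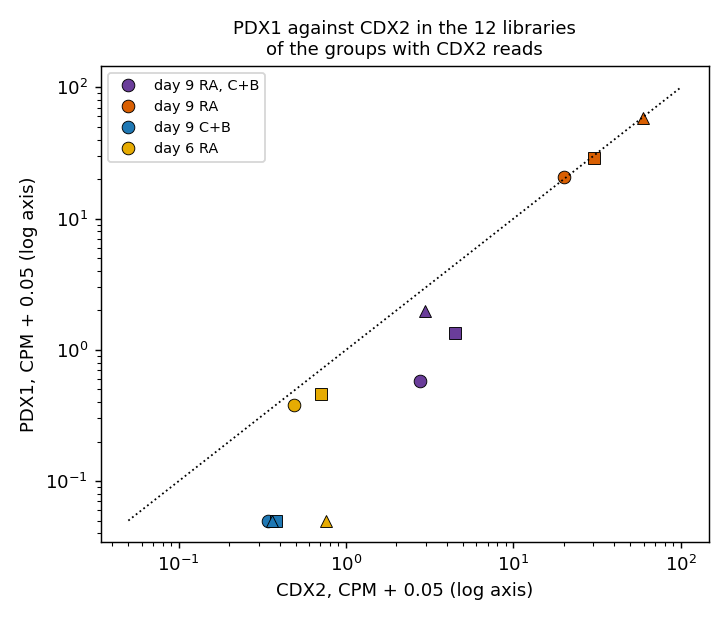
CPM of PDX1 (vertical) against CPM of CDX2 (horizontal), with 0.05 added and both axes logarithmic, for the 12 libraries of the 4 treated groups. C+B stands for CHIR99021 with BMP4, circles, squares and triangles are replicates 1, 2 and 3, and the dotted line marks equal CPM. The 3 day 9 RA libraries lie near that line, at 19.9 to 59.3 CPM of CDX2, and all others lie below it.

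CDX1, the paralogue of CDX2 at chr5:150166778-150184558, did not follow CDX2. It had 0, 2 and 2 counts in the day 9 RA libraries, against 6, 1 and 3 in untreated day 9 libraries. Its highest group mean was 0.620 ± 0.442 CPM, in the day 6 RA group, against 0.595 ± 0.312 CPM in the untreated day 6 group. All neighbouring groups in its order of levels overlapped, and 59 counts over 18 libraries do not allow a difference to be seen.

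MNX1, a homeodomain factor of the early pancreatic epithelium, notochord and motor neurons, lies at chr7:157004853-157009435 on the minus strand. It had 425, 513 and 207 counts in the day 6 RA libraries (46.9, 41.9 and 29.3 CPM), against 2, 1 and 0 in untreated day 6 libraries. At day 9 it had 146, 48 and 33 counts (6.98, 4.82 and 4.55 CPM) after RA and CHIR99021/BMP4, and 0, 2 and 6 counts after RA alone. The groups from day 6 RA to RA with CHIR99021/BMP4 to day 9 RA did not overlap. Its neighbour MNX1-AS1, 1421 bp away, had 16, 23 and 12 counts in day 6 RA libraries and 9, 5 and 3 after RA and CHIR99021/BMP4, with at most 1 count in any other library. MNX1-AS2 overlaps MNX1 by 812 bp and had at most 3 counts in any library.

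RFX6, a winged-helix factor of gut endoderm and of islet precursors, lies at chr6:116877242-116932160. It had 43.8, 45.1 and 40.1 CPM in the day 6 RA libraries, against 0.134, 0.318 and 0 CPM in untreated day 6 libraries. At day 9 it had 32.2, 30.3 and 34.5 CPM after RA and CHIR99021/BMP4 and 16.2, 30.5 and 49.7 CPM after RA alone. The 3 libraries with CHIR99021/BMP4 and no RA had 0.941, 0.776 and 0.622 CPM, above the 0.161 to 0.346 CPM of untreated day 9. Among the 3 groups given RA, the libraries at day 9 with RA alone spread widest and overlapped both others.

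PTF1A, the bHLH factor of pancreatic progenitors and acinar cells, had 1 count over all 18 libraries together. NEUROD1, a bHLH factor of islet endocrine cells and neurons, also had 1. In the day 9 RA libraries, where PDX1 was highest, both had 0 counts, which allows at most 0.121 CPM per gene (3 counts over that group).

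SPINK1, the trypsin inhibitor that acinar cells secrete, lies at chr5:147824582-147839196 on the minus strand. It had 700, 843 and 565 counts in the day 9 RA libraries, or 112, 88.0 and 62.8 CPM. It had 32, 18 and 12 counts after RA and CHIR99021/BMP4 (1.53, 1.81 and 1.65 CPM), 13, 22 and 3 in day 6 RA libraries, and 0 in the 9 libraries without RA. Within the day 9 RA group its order of libraries ran against that of PDX1, CDX2, RFX6 and VIL1, which were highest in replicate 3 and lowest in replicate 1. In TPM, which compares genes per length, SPINK1 stood at 355, 279 and 205 in day 9 RA libraries and PDX1 at 45.9, 64.1 and 133.

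CPA1, the zymogen of carboxypeptidase A, lies at chr7:130380494-130388108. It had 11, 18 and 11 counts in the day 6 RA libraries (1.21, 1.47 and 1.56 CPM), against 0, 1 and 0 in untreated day 6 libraries. At day 9 it had 5, 1 and 0 counts after RA and CHIR99021/BMP4 and 2, 4 and 1 after RA alone. Its highest libraries were those of day 6 RA, whereas PDX1 and SPINK1 were highest at day 9.

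VIL1, the actin-bundling villin, lies at chr2:218419123-218453295 and was the member present in all 18 libraries. It had 79.1, 125 and 159 CPM in the day 9 RA libraries and 19.4, 21.9 and 22.9 CPM after RA and CHIR99021/BMP4. It had 5.93, 5.54 and 4.87 CPM after CHIR99021/BMP4 alone and 5.10, 2.72 and 7.43 CPM in untreated day 9 libraries. At day 6 it had 24.2, 28.6 and 20.7 CPM after RA, against 32.7, 34.1 and 25.2 CPM untreated. USP37, on the opposite strand, overlaps VIL1 by 3045 bp. It had 33.8, 40.1 and 41.2 CPM in the day 9 RA libraries, against 51.4, 50.6 and 52.0 CPM in untreated day 9 libraries. It had 73.9, 80.9 and 70.3 CPM after RA and CHIR99021/BMP4, against 58.5, 61.1 and 56.1 CPM after CHIR99021/BMP4 alone, so with RA it was lower in one setting and higher in the other, while VIL1 was higher in both.

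**Figure D2:**
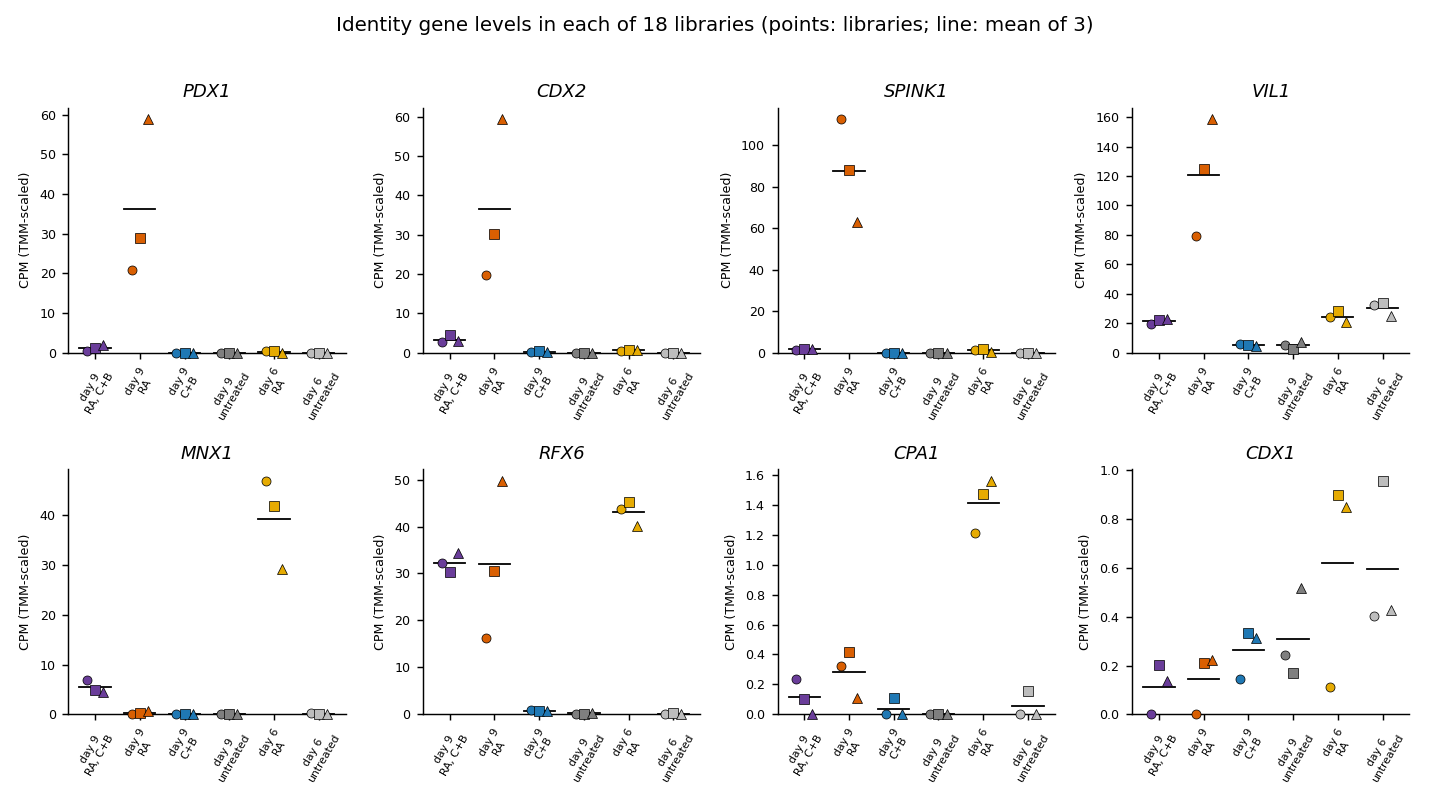
CPM of 8 identity genes in each of the 18 libraries, each panel with its own linear axis from 0 and a line at the mean of 3. C+B stands for CHIR99021 with BMP4, and circles, squares and triangles are replicates 1, 2 and 3. PDX1, CDX2, SPINK1 and VIL1 have their highest libraries at day 9 after RA alone, MNX1 and CPA1 at day 6 after RA, and the groups of CDX1 overlap.

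Promoter windows were read for members that share their highest group: CDX2 and SPINK1, highest at day 9 after RA, and MNX1 and CPA1, highest at day 6 after RA. MNX1 and CPA1 differed in other comparisons, given below. Each window runs 5′ to 3′ along the gene from 250 bases before to 50 bases after a RefSeq start site on GRCh38.p14. The windows are chr13:27969266-27969565 (CDX2, minus strand), chr5:147831622-147831921 (SPINK1, minus), chr7:157009386-157009685 (MNX1, minus) and chr7:130380244-130380543 (CPA1, plus). Capitals mark matches to 6 motifs searched on both strands.
CDX2 promoter window: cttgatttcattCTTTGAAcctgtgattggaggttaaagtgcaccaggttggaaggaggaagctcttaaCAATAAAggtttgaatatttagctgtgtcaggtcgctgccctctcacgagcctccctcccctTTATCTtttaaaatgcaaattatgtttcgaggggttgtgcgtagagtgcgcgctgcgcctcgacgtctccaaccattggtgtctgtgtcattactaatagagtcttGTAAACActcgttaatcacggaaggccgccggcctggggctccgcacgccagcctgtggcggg
SPINK1 promoter window: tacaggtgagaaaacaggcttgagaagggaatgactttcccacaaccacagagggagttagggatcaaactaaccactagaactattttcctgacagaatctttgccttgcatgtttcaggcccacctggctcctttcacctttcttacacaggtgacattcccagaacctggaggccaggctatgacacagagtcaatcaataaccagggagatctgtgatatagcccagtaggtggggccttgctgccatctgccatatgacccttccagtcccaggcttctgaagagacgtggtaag
MNX1 promoter window: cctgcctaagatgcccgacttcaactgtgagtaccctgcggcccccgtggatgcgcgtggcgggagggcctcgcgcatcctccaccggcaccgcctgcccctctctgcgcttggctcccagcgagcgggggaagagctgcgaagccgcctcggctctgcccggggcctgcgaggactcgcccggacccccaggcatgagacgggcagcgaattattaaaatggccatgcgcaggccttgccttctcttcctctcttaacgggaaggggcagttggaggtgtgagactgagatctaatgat
CPA1 promoter window: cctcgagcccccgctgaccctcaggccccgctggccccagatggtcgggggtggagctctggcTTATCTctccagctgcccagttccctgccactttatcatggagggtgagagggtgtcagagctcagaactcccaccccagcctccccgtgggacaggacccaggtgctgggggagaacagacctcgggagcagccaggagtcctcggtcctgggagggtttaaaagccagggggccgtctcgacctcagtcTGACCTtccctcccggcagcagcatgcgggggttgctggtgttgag
In the CDX2 window the first capitals spell the TCF/LEF motif CTTTGAA at -238, counted from the start site to its first base. Next come 3 motifs on the opposite strand, which are the CDX motif TTTATNG at -181, the motif AGATAA of GATA factors at -119, and the FOXA motif TGTTTAC at -13. The CPA1 window holds, also on the opposite strand, the motif of GATA factors at -187 and the nuclear receptor motif AGGTCA at 5. The SPINK1 and MNX1 windows hold none of the 6 motifs, the other being CAAAGTCCA (HNF4). The start site of the SPINK1 window, chr5:147831671, lies inside the deposited span of the gene. No window at the 5′ end of that span, chr5:147839196, was read. A second MNX1 window, chr7:157010614-157010913, lies at the RefSeq start of the gene. It also holds none of the 6 motifs and is not printed. Over 35116 windows of the same length, the TCF/LEF motif was found in 4.43%, the CDX motif in 9.73%, the motif of GATA factors in 10.3%, the FOXA motif in 3.42%, the nuclear receptor motif in 13.8% and the HNF4 motif in 0.384%. No 2 matches overlap, and a match is a description of letters. NEUROD1 was also in the promoter table, with no match, and PDX1, CDX1, RFX6, PTF1A and VIL1 were not.

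The first comparison asks how RA changed these genes by day 6. MNX1, RFX6, SPINK1 and CPA1 rose and no tested member fell, so 4 of 7 were called, beside 48.7% of all genes (25.3% higher). The share of members that rose is in part fixed by the low-count filter, which all but VIL1 passed only through RA libraries. MNX1 was 310-fold higher in day 6 RA than in untreated day 6 libraries (interval 106 to 1507, adjusted p = 1.6e-12). RFX6 was 334-fold higher (114 to 1622, adjusted p = 1.4e-08). SPINK1 was at least 9.37-fold higher (adjusted p = 0.0046), and CPA1 was 32.5-fold higher on 40 counts against 1 (5.51 to 1317, adjusted p = 1.1e-04). CDX2 had reads in all 3 RA libraries and none in the untreated ones but was not called (adjusted p = 0.0595), nor was PDX1 (0.315). VIL1 had a log2 difference of -0.30 ± 0.24 (SE, adjusted p = 0.335).

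These day 6 values rest on untreated libraries of few counts. Leaving out untreated day 6 replicate 1 moved the log2 change of MNX1 to 9.03, and leaving out replicate 3 moved it to 7.41, against 8.12 with all libraries. That of RFX6 was 9.24 without untreated replicate 2 and 7.54 without replicate 3, against 8.25. That of CPA1 was 6.97 without replicate 2 and 4.06 without replicate 3, against 4.69. All of these were still called, and without both untreated replicates 1 and 3 SPINK1 was not (adjusted p = 0.0951). With read kind (position on the pseudogene scale) as a covariate, folds of genes near 0 in untreated libraries are extrapolated. Within groups this covariate varies mainly among the untreated day 6 libraries, so the fit separates it from treatment mainly through them. A lost or reversed call in that fit cannot be told apart from lost power. In that fit SPINK1 turned to a log2 change of -2.42, against 6.84, and was not called (adjusted p = 0.931). CPA1 was not called either (adjusted p = 0.237), at a larger log2 change of 11.04, against 4.69.

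The same question was asked at day 9, 72 h after RA ended. PDX1, CDX2, RFX6, SPINK1, CPA1 and VIL1 rose, 6 of 7 tested, beside 65.1% of all genes called (32.5% higher). As at day 6, the share of members that rose is in part fixed by the low-count filter. SPINK1 was at least 1068-fold, CDX2 at least 445-fold and PDX1 at least 441-fold higher in day 9 RA than in untreated day 9 libraries (adjusted p = 5.4e-09, 1.4e-07 and 2.9e-05). RFX6 averaged 32.1 ± 16.8 CPM in day 9 RA and 0.226 ± 0.104 CPM in untreated day 9 libraries, a 142-fold difference (adjusted p = 8.2e-09). VIL1 was 23.7-fold higher (121 ± 39.9 against 5.09 ± 2.35 CPM, adjusted p = 1.55e-09). CPA1 was at least 3.45-fold higher on 7 counts (adjusted p = 0.0070), and without untreated day 9 replicate 1 it was not called (0.0675). MNX1, on 8 counts against 2, was not called (adjusted p = 0.0800), but it was without day 9 RA replicate 1 (0.0340). With read kind as a covariate SPINK1 turned to a log2 change of -1.53, against 12.87, and was not called (adjusted p = 0.889). CPA1 lost its call (adjusted p = 0.238) at a larger log2 change of 12.33, against 4.66, while PDX1, CDX2, RFX6 and VIL1 kept theirs. Folds of genes at or near 0 in untreated libraries are extrapolated in that fit. It separates read kind from treatment mainly through the untreated day 6 libraries, so lost or reversed calls say little about these genes. Over the alternative settings, that fit among them, log2 changes reached 39.0 for PDX1, 40.2 for CDX2 and 30.3 for RFX6, against 11.6, 11.6 and 7.33. Their kept calls do not show that these 3 genes are free of the read kind difference.

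Both RA comparisons were set against each other by an interaction, the day 9 response minus that at day 6. VIL1 differed by 4.87 ± 0.37 on the log2 scale (SE, adjusted p = 5.3e-08) and MNX1 by -5.79 ± 2.24 (adjusted p = 0.0361), so 2 of 7 were called beside 50.9% of all genes (24.9% higher, 26% lower). The MNX1 call was lost without untreated day 6 replicate 3 (-5.07, adjusted p = 0.0546), untreated day 9 replicate 1 (-3.39, 0.939) or day 9 RA replicate 2 (-5.51, 0.0544). It was also lost with read kind as a covariate (-4.59, adjusted p = 0.0949) and without both untreated day 6 replicates 1 and 3 (-5.50, 0.0764). The value was -6.69 without untreated day 6 replicate 1 and -7.06 without day 9 RA replicate 3. For PDX1, CDX2 and SPINK1 no interaction value is given, because both untreated groups were at 0. The edgeR interaction could not call these genes, although they count among the 7.

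Day 9 against day 6 within the RA-treated cultures compares libraries from the treated end of the pseudogene scale. PDX1, CDX2, SPINK1 and VIL1 rose and MNX1 and CPA1 fell, 6 of 7, beside 58.8% of all genes called (28.5% higher, 30.3% lower). Day 9 levels were 147-fold those of day 6 for PDX1, 60.7-fold for CDX2 and 71.9-fold for SPINK1 (adjusted p = 5.4e-05, 5.0e-07 and 1.8e-08). VIL1 was 4.93-fold higher at day 9 (adjusted p = 4.3e-07). MNX1 fell to 0.292 ± 0.341 CPM at day 9, against 39.4 ± 9.07 CPM at day 6, a 135-fold difference (adjusted p = 9.6e-13). Without day 9 RA replicate 3 the log2 change of MNX1 was -8.17, against -6.89. CPA1 was 4.99-fold lower at day 9 (adjusted p = 0.0020). RFX6 differed by -0.40 ± 0.24 log2 (SE, adjusted p = 0.178), but by -0.85 (adjusted p = 2.5e-04) without day 9 RA replicate 3 and by -0.54 (adjusted p = 0.0030) with read kind as a covariate. Without treatment, 1 of 7 members was called between day 9 and day 6, beside 46.9% of all genes (22.9% lower). That was VIL1, with 5.09 ± 2.35 CPM at day 9 and 30.7 ± 4.76 CPM at day 6 (log2 change -2.58, adjusted p = 5.7e-06). PDX1, CDX2 and SPINK1 had no reads in either untreated group, and MNX1 and CPA1 had 3 counts or fewer in each, which left little or nothing to test.

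**Figure D3:**
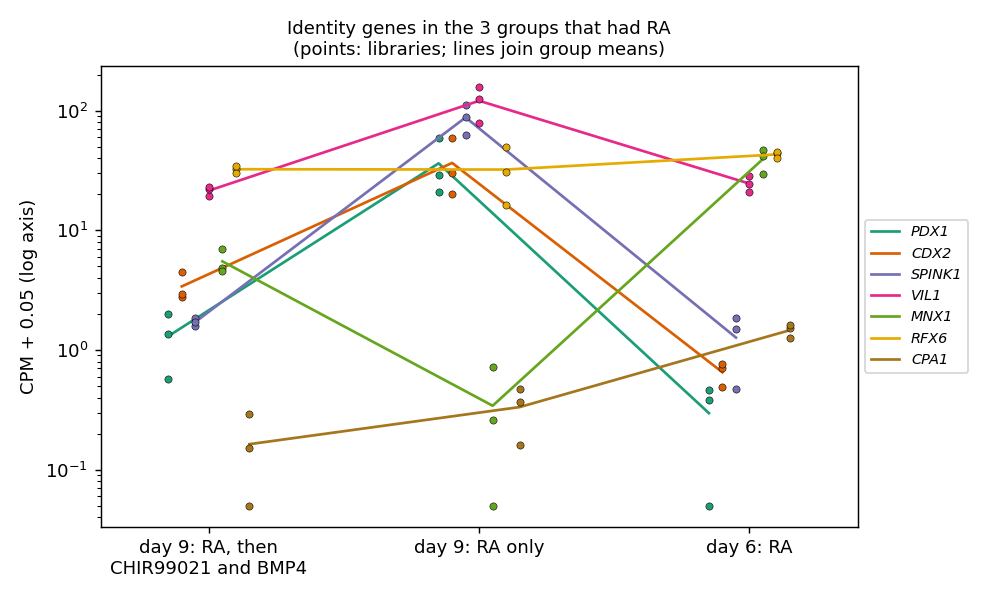
CPM of 7 identity genes, with 0.05 added on a logarithmic axis, in the 3 groups that had RA. Points are libraries and lines join group means. PDX1, CDX2, SPINK1 and VIL1 peak in the middle group (day 9, RA alone), MNX1 has its lowest mean there, and RFX6 runs nearly level at means of 32.3, 32.1 and 43.0 CPM.

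CHIR99021 and BMP4 given after RA asks how respiratory-inducing signals act on these genes in RA-treated endoderm. PDX1, CDX2, SPINK1 and VIL1 fell, MNX1 rose, and RFX6 and CPA1 were not called, so 5 of 7 were called, beside 64.4% of all genes (32.1% higher, 32.3% lower). SPINK1 averaged 1.66 ± 0.14 CPM with CHIR99021/BMP4 and 87.7 ± 24.8 CPM without, 52.7-fold lower (adjusted p = 1.3e-08). PDX1 averaged 1.25 ± 0.70 and 36.2 ± 19.96 CPM, 28.9-fold lower (adjusted p = 7.4e-05). Its log2 change was -4.52 without replicate 1 of the CHIR99021/BMP4 group, against -5.11. CDX2 averaged 3.35 ± 0.93 and 36.5 ± 20.4 CPM, 10.9-fold lower (adjusted p = 3.8e-06), and VIL1 was 5.64-fold lower (adjusted p = 1.3e-07). MNX1 averaged 5.45 ± 1.33 CPM with CHIR99021/BMP4 and 0.292 ± 0.341 CPM without, 18.7-fold higher (adjusted p = 1.1e-07). Without day 9 RA replicate 3 its log2 change was 5.37, against 4.10. RFX6 differed by -0.02 ± 0.25 log2 (SE, adjusted p = 0.954), by 0.43 (adjusted p = 0.0370) without day 9 RA replicate 3, and by 0.77 (adjusted p = 0.0035) with read kind as a covariate.

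MNX1 and RFX6, both high at day 6 after RA, separated at day 9. The TPM of MNX1 over that of RFX6 was 0.864, 0.750 and 0.590 in the day 6 RA libraries. It was 0.175, 0.128 and 0.107 after RA and CHIR99021/BMP4. No library of one group overlapped the other.

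In the reverse view, RA given before CHIR99021 and BMP4 was set against CHIR99021 and BMP4 alone. PDX1, CDX2, MNX1, RFX6, SPINK1 and VIL1 rose, 6 of 7, beside 43.3% of all genes called (21.2% higher). Here, too, the share of members that rose is in part fixed by the low-count filter. MNX1 was 251-fold higher with RA on 227 counts against 1 (44.6 to 9954, adjusted p = 3.1e-09). Its log2 change was 8.95 without CHIR99021/BMP4 replicate 2 and 6.66 without replicate 3, against 7.33. RFX6 was 41.5-fold higher (32.3 ± 2.07 against 0.779 ± 0.160 CPM, adjusted p = 2.6e-08), and SPINK1 at least 23.4-fold higher (adjusted p = 5.7e-04). CDX2 was 10.8-fold higher (adjusted p = 0.0012) and VIL1 3.93-fold higher (adjusted p = 4.35e-05). PDX1 was at least 17.6-fold higher (adjusted p = 0.0337). The PDX1 call was lost without any single library of CHIR99021/BMP4 alone or without replicate 2 or 3 of the group with RA (adjusted p = 0.0581 to 0.0908). CPA1 was not called (adjusted p = 0.129), but it was without CHIR99021/BMP4 replicate 2 (0.0491).

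CHIR99021 and BMP4 without RA called 0 of 7 members with edgeR, beside 42.8% of all genes (21% higher, 21.8% lower), with 1 (CDX2) at an unadjusted p below 0.05. PDX1 and SPINK1 had no reads in either group, and MNX1 and CPA1 had 3 counts or fewer in each. Those members left little or nothing to test, so the count of 0 says little about them. CDX2 had 4, 3 and 6 counts against none, at least 3.79-fold higher (adjusted p = 0.0959). RFX6 had 13, 7 and 12 counts against 4, 1 and 2 (adjusted p = 0.136). DESeq2 called CDX2 and RFX6, as did edgeR with read kind as a covariate (adjusted p = 0.0173 for CDX2 and 0.0056 for RFX6). VIL1 had 5.45 ± 0.54 CPM with CHIR99021/BMP4 and 5.09 ± 2.35 CPM without treatment.

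For CDX2 and VIL1 the response to RA was smaller where CHIR99021 and BMP4 followed. The interaction, the RA response with CHIR99021/BMP4 minus that without, called CDX2 (-8.27 ± 1.95 log2, SE, adjusted p = 0.0036) and VIL1 (-2.61 ± 0.41, adjusted p = 8.5e-05), 2 of 7, beside 53.4% of all genes (25.5% higher, 27.9% lower). The size for CDX2 depends on how a group at 0 counts is fitted. For PDX1 and SPINK1 no value is given, because both groups without RA were at 0. The edgeR interaction could not call PDX1 or SPINK1, although they count among the 7. MNX1 differed the other way and was not called (4.99 ± 2.19, adjusted p = 0.0599). It was called without CHIR99021/BMP4 replicate 2 (6.61, adjusted p = 0.0337) or day 9 RA replicate 3 (6.27, adjusted p = 0.0243), and turned to -1.50 (adjusted p = 0.906) with read kind as a covariate. RFX6 was not called (-1.94 ± 1.03, adjusted p = 0.126), but it was without day 9 RA replicate 1 (-2.24, adjusted p = 0.0031). With read kind as a covariate it was also called, at an extrapolated value of -25.5 (adjusted p = 0.0016).

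Most other listed regulators of pancreatic progenitors that were tested rose with RA at day 9. This list, like the lists below, was chosen with earlier results of these data known, so its counts are a description. Counts of all these lists stand beside shares over all genes. With RA these shares were 32.5% higher and 32.5% lower at day 9, and 25.3% and 23.4% at day 6. With CHIR99021 and BMP4 after RA they were 32.1% and 32.3%. Of 20 listed genes 17 were tested, and 15 rose and 1 fell with RA at day 9, with a median log2 change of 4.31 against -0.02 over all genes. ONECUT1, a cut-domain factor upstream of endocrine progenitors, averaged 94.5 ± 37.1 CPM in day 9 RA and 0.164 ± 0.161 CPM in untreated day 9 libraries (log2 change 8.54). ONECUT2 averaged 499 ± 333 and 1.85 ± 0.345 CPM (8.16), HNF4A 81.9 ± 20.9 and 1.04 ± 0.351 CPM (6.29), and PROX1, which acts in pancreas and liver outgrowth, 61.2 ± 27.2 and 1.74 ± 0.335 CPM (5.12). At day 6, 10 rose and 2 fell with RA (median 1.35 against 0.00). With CHIR99021 and BMP4 after RA, 1 rose and 13 fell (median -1.52 against 0.02). NKX6-1, a beta-cell progenitor factor, NKX2-2 and RBPJL were not tested, with 49, 26 and 7 counts in all.

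Most listed genes of later pancreatic steps did not pass the filter. Of 21 genes of endocrine differentiation 9 were tested, and 1 rose and 3 fell with RA at day 9 (median -1.14 against -0.02). ISL1 averaged 63.6 ± 44.8 CPM in day 9 RA and 181 ± 27.6 CPM in untreated day 9 libraries (log2 change -1.55), and RFX3 44.9 ± 2.43 and 61.2 ± 9.16 CPM (-0.43). INSM1, a zinc-finger factor of endocrine precursors, was the gene that rose, with 2.18 ± 1.46 and 0.214 ± 0.371 CPM (2.47). The islet hormone SST was not tested and averaged 1.15 ± 0.687 CPM in day 9 RA libraries, against 0 in untreated day 9 libraries. NEUROG3, the trigger of endocrine commitment, PAX4, INS and GCG had 0 counts in all 18 libraries. At day 6, 1 rose and 7 fell with RA. With CHIR99021 and BMP4 after RA 3 rose and 3 fell, near the shares over all genes (32.1% higher, 32.3% lower). Of 17 acinar genes 4 were tested, and 3 rose and 1 fell with RA at day 9. PRSS1 (cationic trypsinogen) averaged 12.8 ± 1.08 CPM in day 9 RA and 0.209 ± 0.184 CPM in untreated day 9 libraries, but 113 ± 18.3 CPM in day 6 RA against 11.6 ± 3.97 CPM in untreated day 6 libraries. PRSS2 and PRSS1 are near-identical copies, so the split of reads between them is uncertain. CEL had 3.70 ± 0.896 CPM in day 9 RA and 6.50 ± 2.05 CPM in untreated day 9 libraries. CELA2A, PNLIP, CLPS and SYCN had 0 counts. At day 6, 2 acinar genes rose with RA, and with CHIR99021 and BMP4 after RA 1 rose and 2 fell.

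Among intestinal genes, too, some rose while others had no reads. Of 20 epithelial genes 8 were tested, and 5 rose and 1 fell with RA at day 9 (median 2.7 against -0.02). HNF4G averaged 7.39 ± 1.76 CPM in day 9 RA and 0.110 ± 0.096 CPM in untreated day 9 libraries. ISX, an intestinal homeobox factor, averaged 12.8 ± 4.51 and 0.494 ± 0.205 CPM there, and 57.5 ± 8.16 CPM in day 6 RA against 6.33 ± 0.717 CPM in untreated day 6 libraries. MTTP, which loads lipoproteins, averaged 8.0 ± 2.0 and 0.532 ± 0.348 CPM at day 9. ALPI, KRT20 and TM4SF5 had 0 counts. At day 6, 5 rose and 2 fell, and with CHIR99021 and BMP4 after RA 3 rose and 2 fell. MTTP averaged 70.6 ± 5.86 CPM with CHIR99021 and BMP4 after RA and 8.0 ± 2.0 CPM after RA alone, a log2 change of 3.17, opposite in sign to those of PDX1 and CDX2.

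Of 13 brush border genes other than VIL1, 12 were in the table and 6 tested, and 3 rose and 2 fell with RA at day 9, beside 32.5% of all genes higher and 32.5% lower. EZR and MYO1D rose by 1.11 and 0.68 log2, and ESPN and EPS8 fell by 1.96 and 1.14. With CHIR99021 and BMP4 after RA 1 rose and 4 fell, and at day 6 2 rose and 2 fell with RA. Of 12 gastric and oesophageal genes 7 were tested, and 1 rose and 4 fell with RA at day 9. TP63 averaged 1.74 ± 1.57 CPM in day 9 RA and 60.2 ± 4.70 CPM in untreated day 9 libraries, PITX1 2.61 ± 1.63 and 50.8 ± 0.96 CPM, and SOX2 14.9 ± 11.1 and 74.7 ± 0.75 CPM. OSR1 averaged 1.75 ± 1.0 and 0.473 ± 0.113 CPM. At day 6, 2 rose and 4 fell, and with CHIR99021 and BMP4 after RA 3 rose and 1 fell. TFF2, GKN1 and KRT5 had 0 counts. None of 12 posterior HOX genes, which mark hindgut and trunk, passed the filter, and their summed level was 0.313 to 1.12 CPM in the day 9 RA libraries.

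Markers of several other cell types moved with the day 9 RA group, and their part in the results for the identity genes was not tested. Over all genes, 32.5% were higher and 32.5% lower with RA at day 9. Of 10 cardiac markers 9 were tested, and 7 rose and 1 fell with RA at day 9, with sums of 1258 to 1818 CPM against 66.4 to 78.9 CPM. With CHIR99021 and BMP4 after RA all 9 fell, to sums of 11.3 to 12.8 CPM. Of 10 mesenchyme markers 9 were tested, and 5 rose and 1 fell with RA at day 9 (sums of 2362 to 3575 against 772 to 1244 CPM). Of 10 hepatic markers 9 were tested, and 7 rose and 1 fell (245 to 374 against 10.9 to 30.2 CPM). Of 14 neuron markers 7 were tested, and 5 rose and 1 fell (165 to 237 against 32.3 to 39.9 CPM), while the motor neuron genes LHX3, OLIG2 and CHAT had 1 count each in all. Beside MNX1 and RFX6 at day 6, 8 of 9 tested hepatic markers rose with RA (sums of 555 to 669 against 49.9 to 57.1 CPM). In the same libraries neuron markers summed to 76.3 to 81.7 CPM after RA against 32.4 to 45.6 CPM untreated, with 1 of 7 tested higher (DCX) and 1 lower (NEFL). DCX alone averaged 46.9 ± 2.71 CPM in day 6 RA and 5.89 ± 2.02 CPM in untreated day 6 libraries, and the other markers summed on average to 31.8 and 35.2 CPM. Of 8 notochord and streak markers 5 were tested, with 1 higher (FOXJ1) and 1 lower (EOMES) at day 6, and their sums were 256 to 323 against 42.4 to 72.4 CPM. FOXJ1 alone averaged 278.5 ± 34.6 and 31.8 ± 9.03 CPM, the other markers summed on average to 18.8 and 24.4 CPM, and TBXT and NOTO had 43 and 4 counts in all. Of 11 trophoblast and amnion markers 9 were tested, and 3 rose and 3 fell with RA at day 9 (184 to 379 against 237 to 298 CPM), with CGB3 at 0 counts. These trophoblast and amnion counts are near the shares over all genes.

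**Figure D4:**
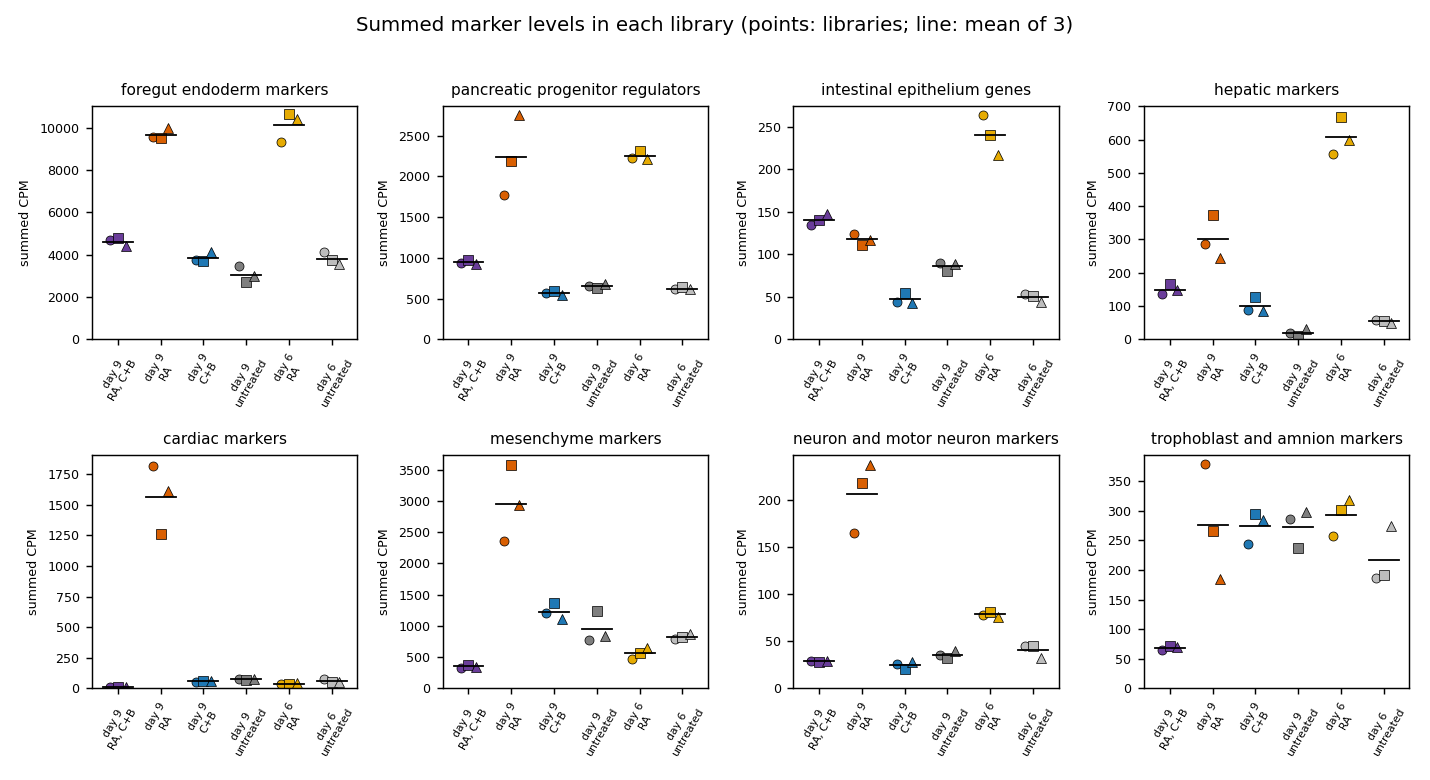
Summed CPM of 8 marker lists in each library, each panel on its own linear axis from 0, with a line at the mean of 3 libraries. C+B stands for CHIR99021 with BMP4, and circles, squares and triangles are replicates 1, 2 and 3. Cardiac, mesenchyme and neuron sums are highest in the day 9 RA libraries, the group in which PDX1 and CDX2 are highest.

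Likeness to the members was measured as the Pearson correlation of log2(CPM + 1) over the 18 libraries, which share 6 groups, among 12430 genes with at least 5 CPM in a group. Most like PDX1 were CXCL8 (r = 0.992), UCN3 (0.983), which encodes the islet peptide urocortin 3, and TM4SF4 (0.980). UCN3 averaged 5.22 ± 2.62 CPM in the day 9 RA libraries, against 0 in every untreated library. For CDX2 they were KCNH7 (0.980), HABP2 (0.980) and PDX1 (0.976). For MNX1 they were OSR1 (0.965), CFAP54 (0.961) and LAMB3 (0.958). OSR1 averaged 42.0 ± 7.97 CPM in day 6 RA and 0.482 ± 0.512 CPM in untreated day 6 libraries. FGFR4 (0.982) and APPL2 (0.968) were among those most like RFX6. For SPINK1 they were CKMT2 (0.984), NYAP2 (0.980) and KIF5B (0.978). For VIL1 they were SIPA1L1 (0.975), PHLDB2 (0.967) and AKIRIN1 (0.965). With 0.1 added in place of 1, 1 of 3 names was kept for PDX1 and CDX2, 3 for VIL1 and 0 for MNX1 and SPINK1. Among members, r was 0.971 for PDX1 with SPINK1, 0.725 for MNX1 with RFX6 and -0.130 for PDX1 with MNX1.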

How the data were processed

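Raw counts per gene and TPM (transcripts per 1000000) were deposited by the authors as tables of 35025 genes and 18 libraries. Per the labels' protocols, RNA was extracted with a Nucleospin kit and TruSeq stranded mRNA was the library kit. The submitters' processing notes name STAR 2.7.9 and the build GRCh38. How reads were assigned to genes, with which annotation and strand option, is not given in the sources used here. 36 genes without a symbol (0.001% of counts) were left out. Counts were analysed with edgeR 4.0.16 in R 4.3.3: filterByExpr (minimum count 10), TMM scaling and 1 robust quasi-likelihood fit over all 18 libraries, with 7 comparisons and 2 interactions. The procedure was tested on simulated data. The members and gene lists were chosen with earlier results of these data known. Named beyond the members were, per list, up to 4 called genes with the largest change with RA at day 9 and at least 5 CPM, any defining marker at 0, and the 3 genes most like each member; some genes that this rule names are not reported here. NKX6-1, NKX2-2, RBPJL, INSM1, SST, DCX, NEFL, FOXJ1, EOMES, GSX1, LINC00543 and other neighbours, and the summed-marker genes at or near 0 counts lie outside that rule and were chosen after values were seen. Alternative settings tried were RLE and upper quartile factors, no filter, DESeq2 1.42.0, limma 3.58.1 on log2(TPM + 0.1), the compared groups alone, a replicate block, read kind as a covariate (the pseudogene scale) and each library left out. Leaving out both mixed untreated day 6 libraries was added after seeing the data. Gene positions are those deposited (GRCh38, counted from 1), and promoter sequences are from RefSeq (GRCh38.p14), with 5 of 10 members in the promoter table. No pairing is stated, and 5 of 45 same-number pairs of libraries had deviations correlated above 0.1, so no block was used. The highest of these, at 0.280, 0.234, 0.179 and 0.157, joined groups without RA, where pairing is thus less clear.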

Additional observations from a re-analysis of the deposited data

Results flagged for a closer look

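4 results were flagged because the response to RA differed between conditions by a test of the difference itself, the edgeR interaction. The response of VIL1 differed between day 9 and day 6 by 4.87 log2 (adjusted p = 5.3e-08). In the RA group it was higher than untreated in 3 of 3 libraries at day 9, while at day 6 the groups overlapped. That of MNX1 differed between the same days by -5.79 log2 (adjusted p = 0.0361), with 3 of 3 day 6 RA libraries above all untreated ones. The response of CDX2 differed by -8.27 log2 (adjusted p = 0.0036) and that of VIL1 by -2.61 log2 (adjusted p = 8.5e-05) when CHIR99021 and BMP4 followed RA. Both genes were higher with RA in 3 of 3 libraries with and without CHIR99021 and BMP4. The MNX1 call between days was lost without untreated day 9 replicate 1 (-3.39, adjusted p = 0.939), untreated day 6 replicate 3 (-5.07, 0.0546) or day 9 RA replicate 2 (-5.51, 0.0544), and with read kind as a covariate (-4.59, 0.0949).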

How the results depend on the processing

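Of 728 gene-level values under other settings, 663 kept direction and side of the threshold, 31 gained a call, 13 lost it and 21 changed sign. Members called for CHIR99021 and BMP4 without RA were 0, against 2 with DESeq2, 2 with limma on TPM, 2 with read kind as a covariate and 1 with the replicate block (CDX2, adjusted p = 0.0176). For the interaction of RA with CHIR99021 and BMP4 they were 2, against 5 with DESeq2 and 6 on TPM. For that with day they were 2, against 5 with DESeq2, 6 on TPM, 1 with read kind, 1 without both mixed day 6 libraries and 1 to 2 over single libraries left out. The replicate numbers are shared by label alone. In 38 of 90 cases a library matched best to its own number in another group, out of 3 libraries each time. The block also called PDX1 and CDX2 with RA at day 6 (adjusted p = 0.0364 and 0.0038), MNX1 at day 9 (0.0388) and MNX1 in the interaction with CHIR99021 and BMP4 (0.0479). DESeq2 called PDX1 and CDX2 with RA at day 6 (0.0487 and 0.0010). Without a low-count filter PDX1 with RA before CHIR99021 and BMP4 was not called (0.0877).

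With read kind as a covariate, whose folds are extrapolated for genes at 0 in untreated groups, SPINK1 with RA changed sign at day 6 (-2.42) and day 9 (-1.53), VIL1 at day 6 (0.58), RFX6 between untreated days (-1.19), MNX1 in the interaction with CHIR99021 and BMP4 (-1.50) and RFX6 in that with day (0.65). Over single libraries left out, RFX6 between untreated days ran from -0.19 to 1.52, the lowest without untreated day 6 replicate 3. It was -0.71 without both mixed libraries, where its interaction with day was 0.32. VIL1 with CHIR99021 and BMP4 without RA ran from -0.088 (without untreated day 9 replicate 2) to 0.264. None of these values was called in its setting. RFX6 with CHIR99021 and BMP4 after RA (-0.02) was 0.070 with upper quartile factors, 0.0023 with no filter, 0.15 on TPM, 0.048 with the replicate block and 0.77 with read kind (called, adjusted p = 0.0035). Over single libraries left out it ran from -0.31 to 0.43, called at its highest (0.0370). CPA1 in the interaction with day (-0.03) was 0.019 with the block, 1.28 with read kind, 1.65 without both mixed libraries and -2.28 to 0.61 over single libraries left out, called in none of these. With limma on TPM it was -1.69 and was called (adjusted p = 0.0318). All genes called with the read kind covariate numbered 1339, 1486, 171, 4813 and 1327, against 7571, 10105, 6654, 7287 and 8300, for RA at day 6, RA at day 9, CHIR99021 and BMP4 without RA, day 9 against day 6 untreated, and the interaction with CHIR99021 and BMP4. Without both mixed libraries 4507 genes were called between untreated days. The covariate runs nearly along with treatment, so fewer calls in that fit cannot be told apart from lost power. The cause was not tested. On TPM the median of all genes shifted by 0.20 for RA at day 6, 0.33 for RA at day 9, 0.24 for CHIR99021 and BMP4 without RA, -0.18 between untreated days, -0.24 for the interaction with CHIR99021 and BMP4 and 0.13 for that with day. On raw totals 31 of 32 levels stayed within 1 SD, RFX6 with RA and CHIR99021/BMP4 moving to 34.4 CPM. Counts under about 10 per library limit CDX1, CPA1 and PDX1 at day 6.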
